A study of Macaca mulatta with 30 samples.

Results

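Left and right primary motor cortex (M1C) were compared in 5 rhesus macaques. The tissue was the forelimb part of M1C, frozen after death, and 10 of the 30 arrays of the series carry the title M1C Left or M1C Right with an animal number. These 10 arrays are 5 pairs, 1 left and 1 right array of each animal, and were chosen by title alone. The other 20 arrays hold ventrolateral prefrontal (VFC) and superior temporal cortex (STC) of the same animals. Each group held 5 arrays, left M1C and right M1C, with animals 1, 2 and 3 labelled female (ages 7.3, 5.5 and 8.6 years) and animals 4 and 5 labelled male (ages 4.2 and 2 years). The labels give no treatment. Sex and age go together with animal and cannot be told apart from it. Total RNA was labelled with biotin and hybridised to Affymetrix arrays, and each probe set has 1 log2 intensity per array.

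Primary motor cortex sends the corticospinal axons that drive the muscles of the opposite side of the body, so left M1C serves the right hand and right M1C the left. Its layer 5 holds very large pyramidal neurons with thick, heavily myelinated axons, and its layer 4 is thin compared with prefrontal and temporal cortex. Neurofilaments, fast potassium channels and the fast calcium sensors of transmitter release are typical of such large, fast-firing cells. The study's title asks about expression differences between the hemispheres, and for M1C the pairing by animal removes what differs between animals. In bulk tissue, fewer cells of a type and less RNA per cell cannot be told apart.

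The label of M1C was checked first. SYT2, a fast calcium sensor of synaptic vesicles, read 9.52 to 10.19 log2 on 9 of the 10 M1C arrays, against 7.43 to 8.85 on the 10 VFC arrays and 8.40 to 9.12 on 9 STC arrays. On the array labelled M1C left of animal 3 it read 8.66, within the STC and VFC ranges and below all other M1C arrays. The left-out STC array, STC right of animal 4, read 10.14. VAMP1, a vesicle SNARE of fast-firing neurons, read 9.28 on M1C left of animal 3, against 9.85 to 10.47 on the other M1C arrays. It read 9.06 to 9.55 on the 9 STC arrays and 8.29 to 9.41 on the VFC arrays. SPP1 (osteopontin), abundant in large motor neurons, read 9.46 on M1C left of animal 3, against 9.89 to 11.00 on the other M1C arrays. The VFC arrays read 8.57 to 10.18 and the 9 STC arrays 9.22 to 10.30 for SPP1. Genes of oligodendrocytes, which make myelin, were read alongside. CNDP1, a carnosinase, read 8.19 on M1C left of animal 3, below the 8.22 to 9.88 of the other M1C arrays. UGT8, an enzyme of myelin lipid synthesis, read 9.39, below their 9.56 to 10.68. KLK6, a protease of oligodendrocytes, read 8.98, just above the lowest of the other M1C arrays (8.96). The 9 STC arrays read 7.39 to 8.64 for CNDP1, 8.83 to 9.96 for UGT8 and 8.34 to 9.37 for KLK6. The VFC arrays read 6.55 to 8.34, 8.45 to 9.73 and 7.58 to 9.07. For each of these oligodendrocyte genes the lowest of the other M1C arrays, from animal 5, lay within both ranges. The regions thus overlapped in these genes.

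**Figure D1:**
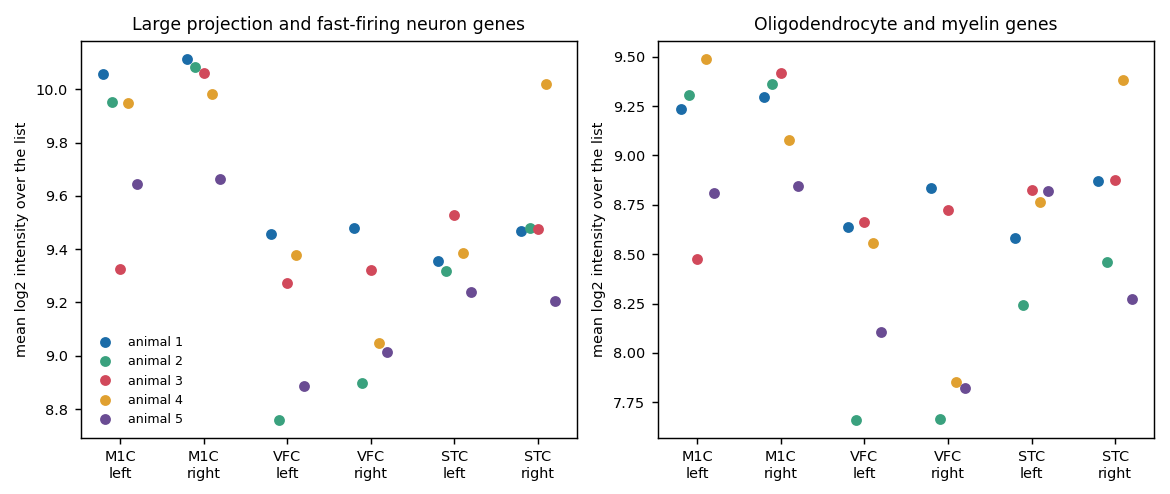
Mean log2 intensity over 13 genes of large projection and fast-firing neurons (left panel) and 20 oligodendrocyte and myelin genes (right panel), 1 point per array, coloured by animal, for each region and hemisphere. M1C left of animal 3 reads 9.33 and 8.48, below every other M1C array, and 1 STC right array (animal 4) lies among the M1C arrays.

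The same array also went against its animal. EIF1AY, a Y-linked gene, read 8.34 on M1C left of animal 3 and 6.99 on M1C right of that animal. On the other arrays of animals 1 to 3 it read 6.83 to 7.87, and on those of animals 4 and 5 8.29 to 8.57, leaving out STC right of animal 4, which read 7.25. The unnamed probe set 13826860 was picked because its M1C mean moved most when animal 3 was left out. Its gap in animal 3 therefore follows from the choice and is no separate support. It read 5.26 on M1C left of animal 3 and 11.41 on its right partner. It read 11.19 to 11.42 on the M1C arrays of animals 1 and 2 and 4.69 to 5.70 on those of animals 4 and 5. Outside M1C it read 11.21 on STC right of animal 4 and 10.58 on VFC left of animal 4, where EIF1AY read 8.29, so this probe set did not separate the animals on every array. By EIF1AY, STC right of animal 4 also goes against its labelled sex, and it enters the STC values given below. The array labelled M1C left of animal 3 therefore goes against its label in region and in sex, and the main counts, the leading genes and the gene lists are given as labelled and without the animal 3 pair. For other named genes the value without it is given where it moved by more than 1.5 times or changed sign. No array was moved to another group.

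The pairs differed in how far apart their hemispheres were. Over the 24292 probe sets tested (mean over 30 arrays above the 40th percentile, 6.04 log2), the SD of left minus right was 0.19, 0.20, 0.31, 0.20 and 0.26 log2 in animals 1 to 5. In animal 3 the SD was 0.18 in VFC and 0.21 in STC, so its M1C pair was the widest of its 3 pairs. Animal 5 came next, and animals 1, 2 and 4 lay close together. At least 2-fold differences between the hemispheres were found at 60, 75, 229, 61 and 129 probe sets in animals 1 to 5. No probe set differed by that much in 4 or 5 animals, and 4 did in 3. Left and right M1C of 1 animal correlated across probe sets at r = 0.976 (animal 3) to 0.990, and M1C arrays of different animals at 0.967 to 0.987. These r values are across probe sets, which are not independent replicates.

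**Figure D2:**
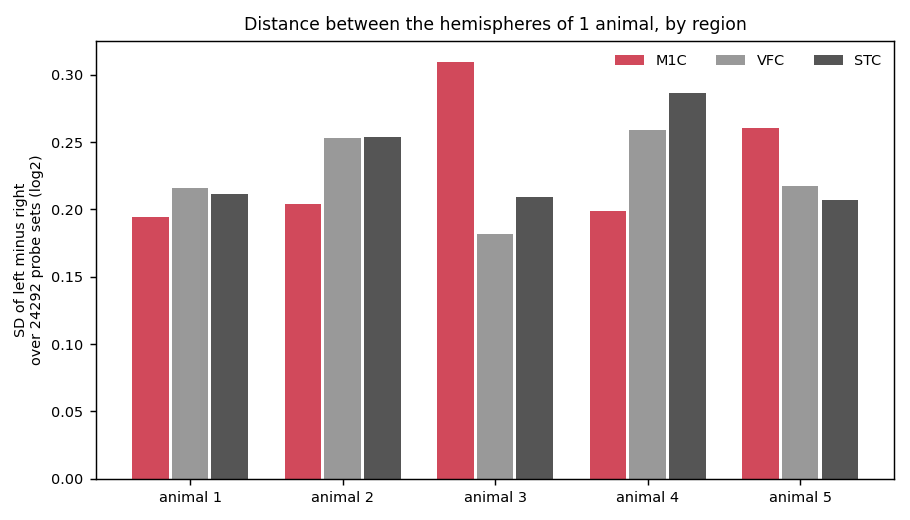
SD of left minus right over 24292 probe sets (log2, vertical axis from 0) for each animal, with M1C beside VFC and STC. The M1C pair of animal 3 is the widest at 0.31, and those of animals 1, 2 and 4 lie between 0.19 and 0.20.

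Within M1C the share of spread between animals was larger than the remainder, which has the same degrees of freedom. The median over probe sets of the share of variance was 52.7% for animal, 5.46% for hemisphere and 35.6% for the remainder (4, 1 and 4 degrees of freedom). Without animal 3 these shares were 57.9%, 6.58% and 27.0%. A share grows with its degrees of freedom, so that of hemisphere cannot be set directly against that of animal. What left minus right in animal 3 has in common with the difference between regions can be given as a correlation across probe sets. Left minus right in animal 3 correlated at r = 0.49 with STC minus M1C of animals 1, 2 and 5. Its r with VFC minus M1C of these animals was nearly the same, at 0.47. For animals 1, 2, 4 and 5 the r with STC minus M1C was 0.099, 0.020, -0.087 and 0.17. With VFC minus M1C it was 0.084, 0.11, -0.13 and 0.10. Each time the animal's own arrays were left out of the region difference. Of the 5 pairs, that of animal 3 had by far the highest r with either region difference.

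Left and right M1C were compared with limma on the 5 within-animal differences. Limma called 0 of 24292 probe sets (0%) at a Benjamini-Hochberg adjusted p under 0.05, and 1313 (5.41%) had an unadjusted p under 0.05. Of these, 769 (3.17%) were higher and 544 (2.24%) lower on the left. Without animal 3, limma also called 0 (0%), and 1698 (6.99%) lay below an unadjusted p of 0.05. The same direction in 5 of 5 animals was found for 1764 probe sets (7.26%), 1045 of them higher (4.3%) and 719 lower (2.96%) on the left. Left and right values did not overlap at all for 135 (0.556%). An exact sign-flip test of 1 gene over 5 pairs cannot go below p = 0.0625.

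The fit also bounds how large a difference could be. The median half-width of the 95% confidence interval of left minus right was 0.18 log2. For 99.6% of probe sets the interval lay within 1 log2 on either side of 0, which is 2-fold, and for 94.5% within 0.50 log2, which is 1.41-fold. These intervals are per probe set and are not adjusted for their number. An asymmetry of M1C smaller than these intervals was not detectable with 5 animals. Larger asymmetries could also go uncalled, since the threshold applies after adjustment over all tested probe sets. The probe set with the smallest p differed by 0.55 log2 and was not called (limma adjusted p = 0.536).

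The probe set with the smallest p belonged to ITGB4, the integrin beta 4 chain, which binds laminin together with the alpha 6 chain. ITGB4 read 6.92, 7.19, 7.34, 7.30 and 7.48 log2 in left M1C of animals 1 to 5, against 6.38, 6.41, 6.87, 6.91 and 6.90 in right M1C. All 5 left values lay above all 5 right values. The difference was 0.55 ± 0.071 log2 (moderated SE, n = 5 animals, 1.47-fold, limma adjusted p = 0.536), and 0.58 ± 0.077 without animal 3 (adjusted p = 0.456). The other, brighter ITGB4 probe set gave 0.31 ± 0.10, also higher on the left in 5 of 5 animals. In VFC and STC the ITGB4 difference was 0.050 and -0.015 log2.

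Of the genes chosen by the smallest p with 1 direction in 5 of 5 animals, the 10 higher on the left differed by 1.18-fold to 1.60-fold and the 10 lower by 1.16-fold to 1.35-fold. Their limma adjusted p lay between 0.885 and 0.889, and between 0.466 and 0.674 without animal 3. None of the 20 passed the threshold, and the ITGB4 probe set above had a smaller adjusted p. Left and right values did not overlap for 3 of the 20, against 0.556% of all probe sets, a comparison in which the rule that picked them had a part.

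GNB4, a G protein beta subunit that couples receptors to their effectors, read 6.06, 6.30, 6.87, 6.74 and 6.52 in left M1C, against 5.63, 6.11, 6.31, 5.99 and 6.05 in right M1C. The difference was 0.48 ± 0.084 log2, with left above right in each animal and the groups overlapping through the left values of animals 1 and 2, which lay below the highest right value. PLPP5, a phospholipid phosphatase, read 6.75, 6.80, 6.96, 6.58 and 6.93 on the left, against 6.57, 6.34, 6.53, 6.27 and 6.57 on the right. Its groups did not overlap, and its difference of 0.35 ± 0.064 was 0.33 ± 0.067 without animal 3. OLFML2B, an olfactomedin-like protein of the extracellular matrix, read 5.90, 6.04, 6.46, 6.14 and 6.43 on the left, against 5.55, 5.89, 5.92, 5.53 and 5.75 on the right (0.47 ± 0.087). Only animal 1 on the left came within the right-hand range, and all 5 right-hand values lay below the filter level of 6.04.

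SEMA3E, a secreted semaphorin that guides axons and blood vessels through plexin D1 and marks deep-layer neurons, differed most in size among the 20. It read 6.07, 6.51, 6.65, 7.26 and 6.62 in left M1C, against 5.82, 6.19, 6.00, 6.11 and 5.59 in right M1C. The right values of animals 1, 3 and 5 and the right mean of 5.94 lay below the filter level of 6.04. The difference was 0.68 ± 0.14 log2 (1.60-fold) and 0.69 ± 0.17 without animal 3, ranging from 0.25 in animal 1 to 1.16 in animal 4. SYT10, a synaptotagmin that in mouse neurons releases IGF-1, read 5.86, 5.64, 6.75, 5.82 and 6.50 on the left, against 5.58, 5.33, 5.61, 5.33 and 5.60 on the right. The groups did not overlap. All right-hand values lay below the filter level, and so did the left values of animals 1, 2 and 4. Its difference was 0.62 ± 0.13 as labelled and 0.49 ± 0.11 without animal 3, whose pair differed by 1.14. SYT10 was 1.07 log2 higher in STC than in M1C in animals 1, 2 and 5.

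SYT7, the slow calcium sensor of asynchronous transmitter release, read 8.64, 8.75, 8.85, 8.84 and 8.75 in left M1C, against 8.46, 8.50, 8.50, 8.66 and 8.45 in right M1C (0.25 ± 0.058 log2). The left value of animal 1 lay just under the right value of animal 4, the sole overlap. RPRM (reprimo), a p53 target that halts the cell cycle, read 0.36 ± 0.083 higher on the left, from 0.041 in animal 5 to 0.52 in animal 4. PLEKHG5, mutated in human motor neuron disease, differed by 0.23 ± 0.056, between 0.17 and 0.32 in all 5 animals. ZNF444, a zinc finger protein, differed by 0.28 ± 0.067, and H2BW1C, named as a histone H2B gene, by 0.29 ± 0.063.

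On the lower side, SNCG, the gamma member of the synucleins, read 9.06, 9.32, 9.22, 9.04 and 8.89 in left M1C, against 9.47, 9.71, 9.29, 9.25 and 9.22 in right M1C. The pair of animal 3 was the closest (-0.075) and that of animal 1 the widest (-0.40). The difference was -0.28 ± 0.069 log2 as labelled and -0.33 ± 0.062 without animal 3 (adjusted p = 0.466). GMPR, a GMP reductase of purine metabolism, read 7.60, 7.19, 6.70, 7.19 and 7.09 on the left, against 7.85, 7.65, 7.52, 7.41 and 7.49 on the right. Its difference of -0.43 ± 0.093 was -0.33 ± 0.067 without animal 3, the animal with the lowest left value. PHB2, a prohibitin of the inner mitochondrial membrane, read 7.18, 7.13, 6.85, 6.96 and 7.18 on the left, against 7.59, 7.39, 7.21, 7.58 and 7.22 on the right (-0.34 ± 0.086). Its groups did not overlap, although animal 5 differed by just -0.041.

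PIRT, a membrane protein that regulates TRP channels in sensory neurons, read 6.27, 5.84, 5.99, 6.37 and 6.15 in left M1C, against 6.41, 6.33, 6.20, 6.76 and 6.81 in right M1C (-0.38 ± 0.086 log2). CDR2, the antigen of a paraneoplastic cerebellar degeneration, read 6.47, 6.35, 6.16, 5.97 and 5.78 on the left, against 6.68, 6.77, 6.44, 6.34 and 5.94 on the right (-0.29 ± 0.063). Animals differed more from each other in CDR2 than hemispheres did, with animal 5 low on both sides. SHISAL2A, a shisa-like membrane protein, differed by -0.33 ± 0.068, ZNF616 by -0.25 ± 0.057 and TLCD1, which sets the lipid makeup of membranes, by -0.21 ± 0.057. MXRA5, a matrix protein, differed by -0.27 ± 0.071 and CLEC11A, a secreted lectin-type growth factor, by -0.26 ± 0.070. Without animal 3 the 20 differences were 0.773 to 1.18 times their size as labelled, and all kept their sign.

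**Figure D3:**
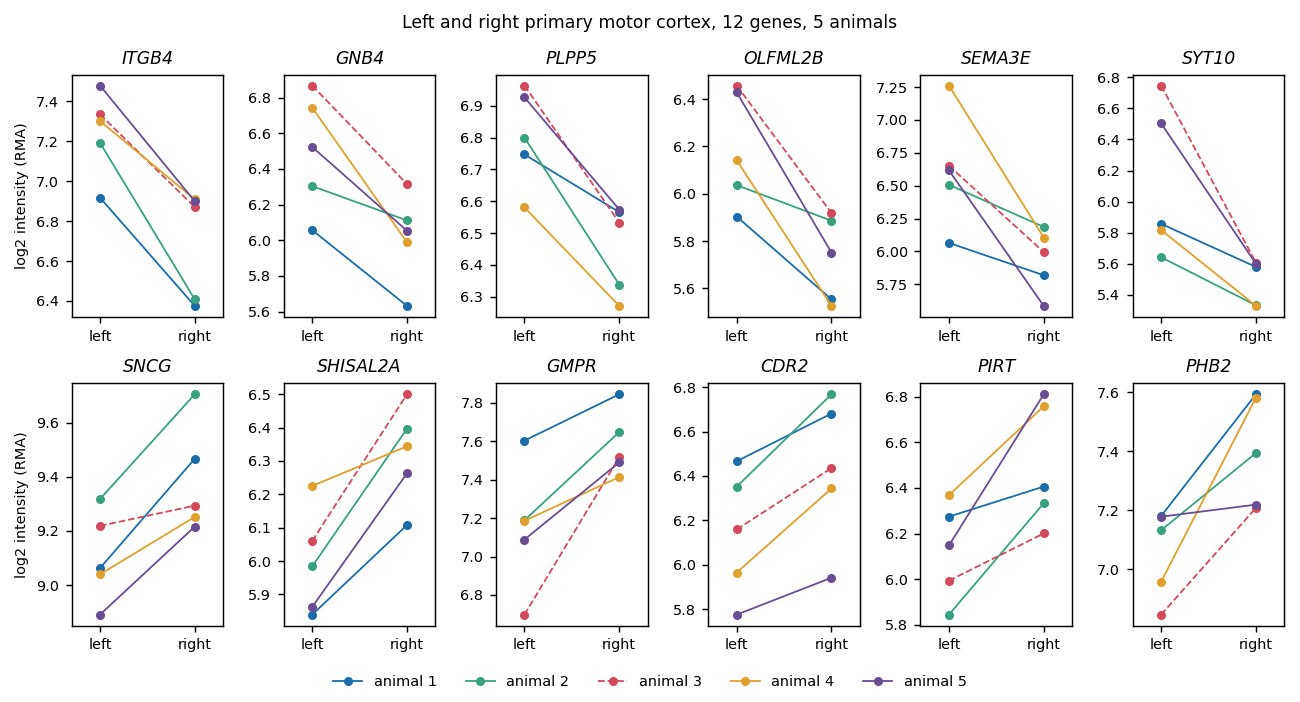
Log2 intensity in left (left side of each panel) and right M1C for 12 genes, with a line joining the 2 hemispheres of each animal. ITGB4, GNB4, PLPP5, OLFML2B, SEMA3E and SYT10 read higher and SNCG, SHISAL2A, GMPR, CDR2, PIRT and PHB2 lower on the left in 5 of 5 animals. The pair of animal 3, whose left array goes against its label, is dashed.

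Leaving out animal 3 brought up further genes that had 1 direction in the other 4 animals. KCNMB3, an auxiliary subunit of the BK potassium channel, read 0.36 ± 0.076 log2 higher on the left in animals 1, 2, 4 and 5, against 0.27 ± 0.092 as labelled. MAP3K21, a mixed-lineage kinase, read 0.30 ± 0.064 higher there. HCN3, a hyperpolarisation-activated channel subunit, read 6.13, 6.18, 6.20 and 6.04 in left M1C of these animals, against 6.34, 6.62, 6.54 and 6.41 in right M1C. All 4 left values lay below all 4 right values (-0.34 ± 0.064), while animal 3 read 6.22 on the left and 6.01 on the right. HMGA2, a chromatin protein, read -0.29 ± 0.056, PTCRA, the pre-T-cell receptor alpha chain, -0.39 ± 0.065, and PGA4, a pepsinogen, -0.51 ± 0.082. Limma adjusted p lay at 0.456 to 0.529 for these genes. At the probe sets used for these 6 genes the sign in animal 3 was opposite to that in the other 4 animals, though for HMGA2 and KCNMB3 at just 0.022 and -0.069. The rule that picked them had a part in this, as it used the other 4 animals alone and genes named above were set aside. As labelled, all 6 differences were smaller in size, at -0.23 ± 0.099 for HCN3 and -0.30 ± 0.17 for PGA4. The other tested PGA4 probe set gave -0.23 ± 0.076 as labelled and lay below 0 in 5 of 5 animals, animal 3 included.

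Whether the hemisphere difference of M1C differed from that of VFC and STC was tested in 1 fit, on M1C left minus right minus the mean of the other regions within each animal. No probe set passed in limma (0 of 24292, 0%), and 1146 (4.72%) had an unadjusted p below 0.05. SLC6A20, a transporter of proline, gave 0.64 ± 0.083 log2 (5 of 5 animals, limma adjusted p = 0.217), with 0.26 in M1C, -0.26 in VFC and -0.49 in STC. BMP6, a bone morphogenetic protein, gave 0.64 ± 0.098 (adjusted p = 0.407) and SLC13A4, a sulfate transporter of the meninges, 1.06 ± 0.16 (adjusted p = 0.381). In M1C itself SLC13A4 read 8.22, 7.18, 8.30, 7.71 and 8.21 on the left, against 6.82, 7.54, 7.98, 8.08 and 6.98 on the right. It was higher on the left in 3 animals and lower in 2, so its M1C difference of 0.44 ± 0.27 lay within the spread between pairs.

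Among named genes whose left minus right difference was lower in M1C than in the other regions, the smallest p was that of SNCG. It differed by 0.031 log2 in VFC and 0.18 in STC, and the M1C difference lay -0.38 ± 0.078 below their mean, in 5 of 5 animals (limma adjusted p = 0.536). H2BC9, a histone H2B gene, gave -0.34 ± 0.071 and PRSS1, a trypsinogen, -0.33 ± 0.075, each in 5 of 5 animals (adjusted p = 0.548 and 0.692). Of the 20 genes picked within M1C, 15 had an unadjusted p under 0.05 in this comparison, and it uses the same M1C differences that picked them. PLPP5 lay at -0.0021 in VFC and -0.0013 in STC (M1C minus the others 0.35 ± 0.070, adjusted p = 0.536). SEMA3E read higher on the left in those regions too (0.43 and 0.27). The STC arrays include 1 in doubt, STC right of animal 4, and without animals 3 and 4 limma again called 0 (smallest adjusted p = 0.163).

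**Figure D4:**
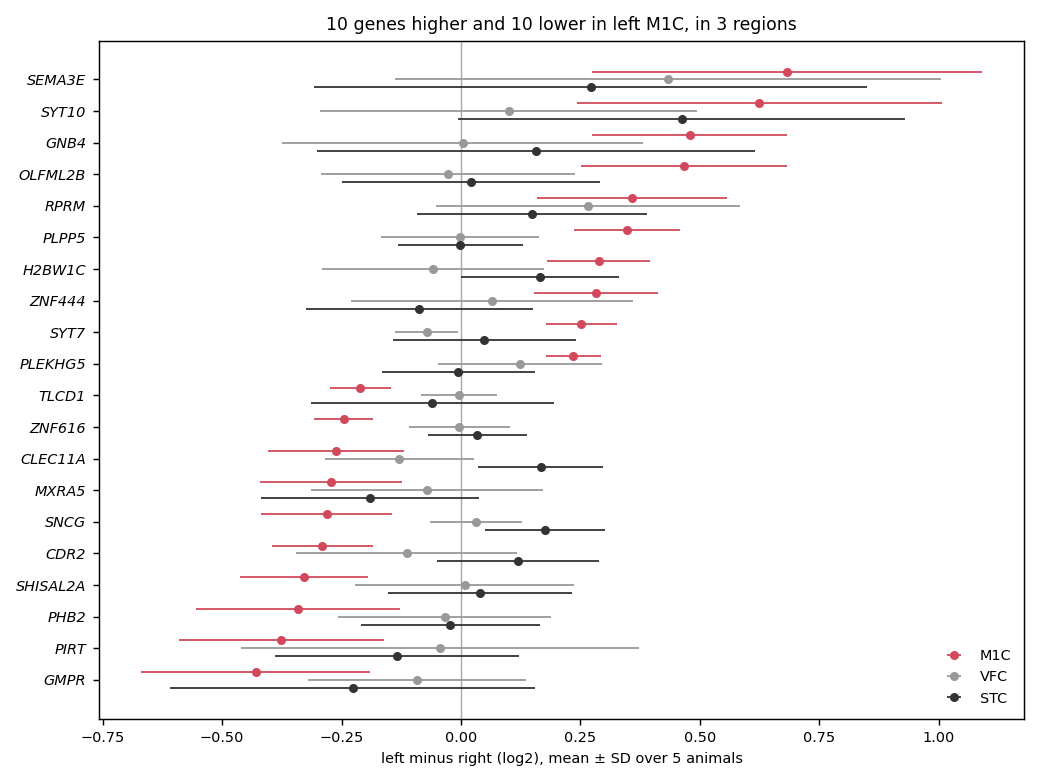
Left minus right (log2, mean ± SD over 5 animals) of the 20 genes with the smallest p in M1C, for M1C beside VFC and STC. M1C chose these genes, so its points lie off 0 by construction. SEMA3E and SYT10 are also above 0 on average in both other regions, while PLPP5 and ZNF616 are near 0 there.

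Gene groups were described by the median of their members' left minus right differences, beside a median of 0.0037 log2 over all tested probe sets (0.0076 without animal 3). Of 35 lists, 0 had a member past the threshold, with or without animal 3. In each list up to 3 members were named by the smallest p in this same fit, so they are not typical of their list. The medians lay between -0.18 and 0.19 as labelled and between -0.070 and 0.095 without animal 3, and 9 of them changed sign. In 25 lists the pair of animal 3 had the largest median in size, and in 32 its sign was that of STC minus M1C in animals 1, 2 and 5.

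Of all lists, those of myelin and of large projection neurons had the largest medians in size in animal 3. In the list of large projection and fast-firing neurons, left M1C had the lower mean for 12 of 13 tested genes, at a median of -0.18 log2. By animal the median was -0.084, -0.13, -0.68, -0.057 and -0.055, and without animal 3 it was -0.066 with 10 of 13 below 0. PVALB, the calcium buffer of fast-spiking interneurons, read 10.68, 10.62, 9.86, 10.70 and 10.43 in left M1C, against 10.82, 11.04, 10.58, 10.84 and 10.58 in right M1C. It was lower on the left in each pair (-0.31 ± 0.097, and -0.21 without animal 3). HAPLN4, which links the perineuronal net at fast synapses, read -0.36 ± 0.15 and KCNA2, an axonal potassium channel, -0.18 ± 0.076, and these were -0.17 and -0.10 without animal 3. SYT2 read -0.42 ± 0.20, of which -1.53 stood in animal 3 and -0.12 to -0.17 in the others.

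All 20 tested oligodendrocyte and myelin genes read lower on the left as labelled (median -0.12 log2), and 17 of 20 read higher without animal 3 (median 0.069). The medians by animal were -0.073, -0.016, -0.93, 0.42 and -0.039, so the pairs of animals 3 and 4 pulled in opposite directions. UGT8 differed by -1.20 in animal 3 and by 0.41 in animal 4, against -0.15, -0.025 and 0.046 in animals 1, 2 and 5. Its mean was -0.18 ± 0.20 as labelled and 0.072 ± 0.097 without animal 3. CNDP1 read -0.50 ± 0.23 and -0.21 without animal 3, and KLK6 -0.10 ± 0.12 and 0.011. Of the precursors' genes, 5 of 10 read higher and 5 lower (median 0.0044, and 0.0041 without animal 3), with OLIG1, a lineage transcription factor, at -0.15 ± 0.063 in 5 of 5 animals.

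Of the 17 tested deep-layer genes, 14 had the higher mean in left M1C, at a median of 0.13 log2 (0.085 and 12 of 17 without animal 3). The median by animal was -0.082, 0.077, 0.28, 0.24 and 0.11, so animal 1 lay on the other side of 0. NR4A2, a nuclear receptor of deep-layer and subplate-derived neurons, read 7.50, 8.17, 8.85, 8.32 and 8.20 in left M1C, against 7.62, 7.99, 7.72, 7.36 and 7.21 in right M1C. Animals 3, 4 and 5 differed by 0.96 to 1.13 while animals 1 and 2 differed by -0.11 and 0.18. HS3ST4, a heparan sulfate sulfotransferase of layer 6 neurons, read 0.19 ± 0.066 higher in 5 of 5 animals and 0.23 without animal 3. At an unadjusted p under 0.05, 5 of the 17 read higher and 0 lower, against 3.17% and 2.24% of all probe sets. Without animal 3 these counts were 3 higher and 1 lower, against 798 higher and 900 lower of all 24292 probe sets. Other lists had similar counts as labelled. At this p, 4 of 22 vascular and 3 of 13 large projection genes were lower and 0 higher. Of 13 upper and granular layer genes, 3 were higher and 0 lower.

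Upper and granular layer genes also read higher on the left, 12 of 13 as labelled (median 0.19 log2) and 11 of 13 without animal 3 (median 0.095). The medians of animals 3 and 5 were 0.54 and 0.41, those of animals 1, 2 and 4 0.044, 0.088 and -0.013. PDYN, the dynorphin precursor, read 6.92, 7.08, 7.76, 6.13 and 7.32 on the left, against 7.01, 6.83, 7.08, 5.84 and 6.64 on the right (0.36 ± 0.12), and animal 4 was low in both hemispheres. LAMP5, which marks upper-layer neurons and a class of interneurons, read 0.22 ± 0.090. Pan-excitatory genes had a median of 0.015 (-0.016 without animal 3) and inhibitory interneuron genes of 0.022 (0.043 without animal 3), so these broad classes lay near the median of all probe sets. SLC17A6, a vesicular glutamate transporter, stood out within the excitatory list through animal 5, at 8.49 on the left and 7.02 on the right, with 0.36 ± 0.23 over all pairs.

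**Figure D5:**
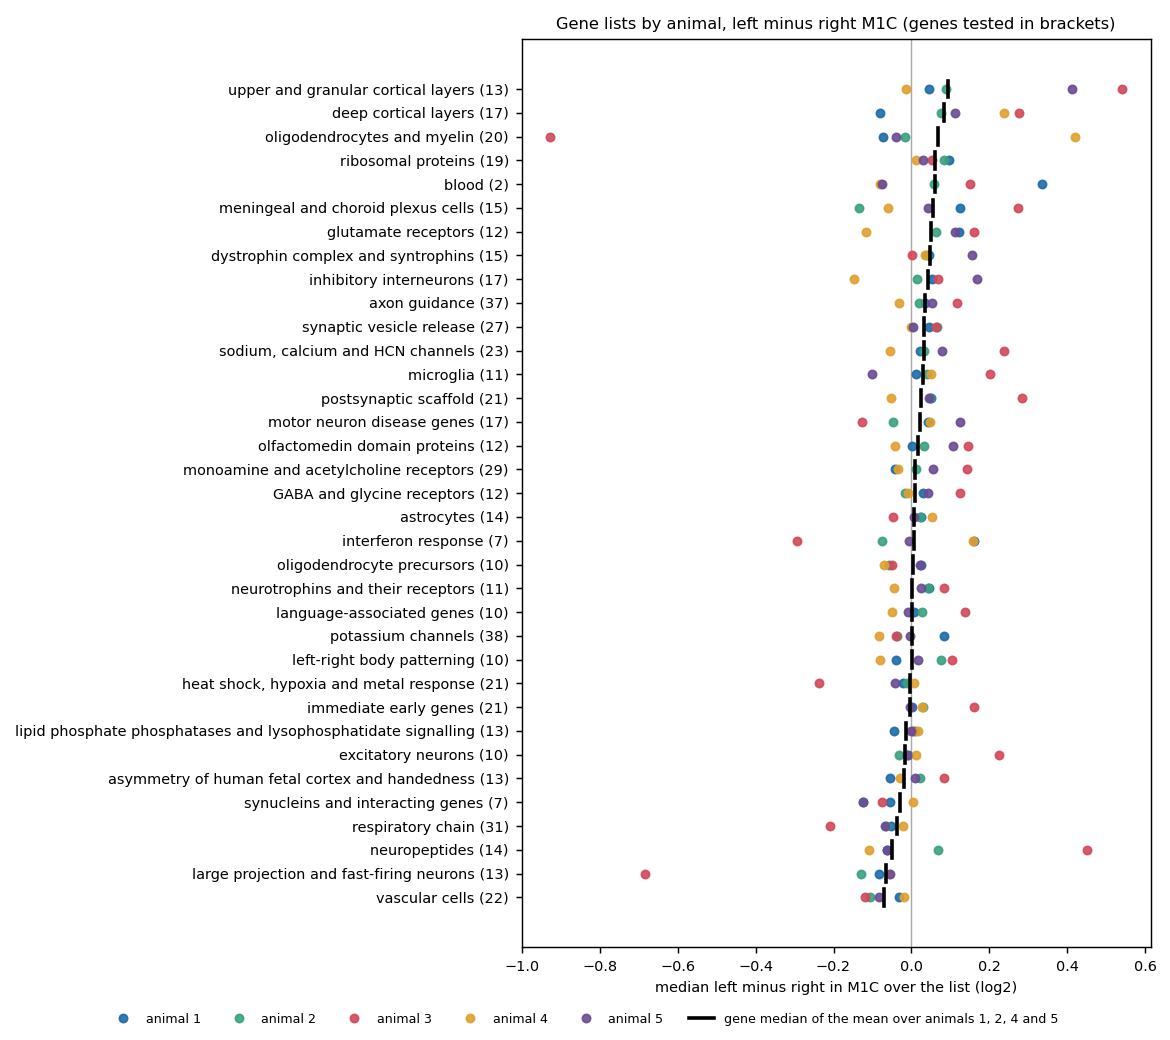
Median left minus right in M1C (log2) of each gene list, 1 point per animal, with a black bar for the median of the gene means over animals 1, 2, 4 and 5, by which the lists are ordered. Animal 3 lies far from the others for large projection neurons (-0.68), myelin (-0.93) and neuropeptides (0.45), and for respiratory chain, vascular and ribosomal protein genes all 5 animals lie on 1 side of 0.

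In 5 of the 35 lists the median of each of the 5 animals had the same sign. Of single probe sets, 7.26% had 1 direction in 5 of 5 animals. Some lists share genes, and whether 5 lists is more than chance gives was not tested. Respiratory chain genes, which encode subunits of the mitochondrial complexes, read lower on the left in 29 of 31 cases (26 of 31 without animal 3). The median was -0.051, -0.065, -0.21, -0.022 and -0.068 log2 by animal, -0.075 over all and -0.037 without animal 3. UQCRQ, a subunit of complex III, read -0.21 ± 0.088, and NDUFA8 and NDUFV2, subunits of complex I, -0.16 ± 0.071 and -0.13 ± 0.058, each in 5 of 5 animals. Without animal 3, UQCRQ read -0.11 and NDUFA8 -0.11. Respiratory chain genes were also lower in STC than in M1C (median -0.17 in animals 1, 2 and 5), the direction of animal 3.

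Vascular genes read lower on the left in 15 of 22 cases, at a median of -0.088 log2 and of -0.070 without animal 3. RGS5, a pericyte regulator of G protein signalling, read 9.84, 9.87, 9.52, 9.91 and 9.67 in left M1C, against 9.97, 10.02, 10.12, 10.004 and 9.94 in right M1C. Its groups did not overlap (-0.25 ± 0.084, and -0.17 without animal 3). EPAS1, the hypoxia-inducible factor of endothelium, read -0.15 ± 0.060 and ABCC9, a pericyte channel subunit, -0.17 ± 0.069. Ribosomal protein genes read higher on the left in 16 of 19 cases, at a median of 0.071 and 0.061 without animal 3, led by RPS23 (0.11 ± 0.055), RPL11 (0.12 ± 0.067) and RPL7 (0.10 ± 0.058). Vascular medians by animal lay between -0.12 and -0.020, and ribosomal ones between 0.011 and 0.098. The remaining lists on 1 side in 5 of 5 animals were large projection neurons, given above, and the dystrophin complex (median 0.045, and 0.049 without animal 3). In that complex SNTB1, a syntrophin that anchors channels to it, read 7.27, 7.60, 7.49, 7.38 and 7.40 on the left, against 7.14, 7.40, 7.14, 7.06 and 6.79 on the right (0.32 ± 0.078).

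Astrocyte genes were split, 7 higher and 7 lower on the left (median -0.0045 log2, and 0.0075 without animal 3). AGT, the angiotensin precursor made by astrocytes, read 7.54, 7.63, 8.10, 7.36 and 7.91 in left M1C, against 7.28, 7.29, 7.72, 6.83 and 6.40 in right M1C. Each left array was above its partner, by 0.26 to 0.53 in animals 1 to 4 and by 1.51 in animal 5 (0.60 ± 0.17). KCNJ10, the potassium channel that astrocytes use to clear potassium, read 10.41, 10.47, 9.98, 10.58 and 9.89 on the left, against 10.58, 10.62, 10.47, 10.73 and 10.17 on the right (-0.25 ± 0.071). AQP4, their water channel, read 0.17 ± 0.084 and GJB6, a gap junction protein, -0.15 ± 0.062. Microglial genes had a median of 0.037 (0.030 without animal 3), with TYROBP, an adaptor of microglial receptors, 0.16 ± 0.061 higher in 5 of 5 animals.

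Markers of tissue around the cortex were read as a check of dissection. Meningeal and choroid plexus genes had a median of 0.043 log2, and 0.055 without animal 3. By animal it was 0.12, -0.13, 0.27, -0.060 and 0.043 in animals 1 to 5, with DCN, a matrix proteoglycan, at 0.62, -0.35, 0.17, -0.15 and 0.75. The mean level of these genes was 6.78 to 7.26 on the left arrays and 6.76 to 7.04 on the right. Only 2 of 13 blood genes passed the filter, PF4 and S100A9, and these differed by 0.18 ± 0.12 and -0.024 ± 0.070. Heat shock, hypoxia and metal response genes read lower on the left in 19 of 21 cases (median -0.041), and in 12 of 21 without animal 3 (median -0.0032). VEGFA, a hypoxia-induced growth factor, read -0.18 ± 0.085 over all pairs and -0.084 without animal 3, with -0.54 in animal 3 and -0.022 to -0.15 in the others. The part of any of these in the differences above was not tested.

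Among receptors, the glycine receptor genes GLRA1 and GLRA2 stood at opposite ends. The other tested glycine receptor genes lay between them, GLRA3 at 0.088 log2 (-0.0027 without animal 3) and GLRB at -0.12. GLRA1, the alpha 1 subunit, read 6.96, 6.82, 5.89, 6.61 and 5.87 in left M1C, against 7.19, 7.12, 6.995, 6.79 and 6.50 in right M1C (-0.49 ± 0.13 log2, and -0.33 without animal 3). GLRA2, the alpha 2 subunit, read 7.07, 7.26, 7.71, 6.96 and 7.14 on the left, against 6.86, 6.46, 6.77, 7.06 and 6.66 on the right (0.47 ± 0.14, and 0.35 without animal 3). GLRA1 was lower on the left in 5 pairs and GLRA2 higher in 4. The signs are those of STC minus M1C in animals 1, 2 and 5, which stood at -0.996 for GLRA1 and 0.67 for GLRA2. GABRG1, a GABA-A receptor subunit, read 0.29 ± 0.093. Over the 12 tested GABA and glycine receptor genes the median was 0.053, and 0.0085 without animal 3.

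DRD1, the D1 dopamine receptor, read 8.36, 8.90, 8.88, 8.70 and 8.52 in left M1C, against 8.22, 8.56, 8.68, 8.54 and 7.85 in right M1C. It was higher on the left in 5 of 5 animals (0.30 ± 0.087 log2, and 0.33 without animal 3), with the groups overlapping. HTR2A, a serotonin receptor of pyramidal neurons, read -0.18 ± 0.061 and HRH3, the histamine autoreceptor, -0.21 ± 0.074, each lower in 5 of 5 animals. HRH3 read 7.52 to 7.70 on the left and 7.74 to 7.94 on the right, with no overlap. The 29 tested monoamine and acetylcholine receptor genes had a median of 0.054, and 0.0093 without animal 3. Glutamate receptor genes had a median of 0.072 (0.049 without animal 3), with GRIK1, a kainate receptor subunit, at 0.28 ± 0.10, GRIN3A at 0.16 ± 0.085 (0.067 without animal 3) and GRIN1, the obligatory NMDA receptor subunit, at 0.10 ± 0.057.

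Ion channels showed no common direction, with 19 of 38 potassium channel genes higher and 19 lower on the left (median -0.0015, and 0.0014 without animal 3). KCNA3 read 0.20 ± 0.074 log2 in 5 of 5 animals (0.13 without animal 3). Of 23 sodium, calcium and HCN channel genes 16 read higher (median 0.018, and 0.032 without animal 3), as SCN3A (0.25 ± 0.095, and 0.16 without animal 3), a sodium channel typical of young neurons, and CACNA1D (0.19 ± 0.072), an L-type calcium channel. Of 27 vesicle release genes 18 read higher (median 0.066, and 0.032 without animal 3), among them RIMS2, an active zone protein, at 0.14 ± 0.059 in 5 of 5 animals. Of 21 postsynaptic scaffold genes 18 read higher as labelled and 14 without animal 3 (medians 0.078 and 0.025), with SHANK3 at 0.14 ± 0.074, DLGAP3 at 0.14 ± 0.073 and LRRC7 at 0.14 ± 0.091. Without animal 3 these were 0.074, 0.085 and 0.045. Neuropeptide precursors had a median of 0.11 as labelled and -0.050 without animal 3. NPY read 0.17 ± 0.084 (0.11 without animal 3), and CBLN2, a synapse organiser, -0.41 ± 0.15.

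Immediate early genes, which report recent neuronal activity, had a median of 0.048 log2 and of -0.0036 without animal 3. DUSP6, a MAP kinase phosphatase, read 0.14 ± 0.069 (0.090 without animal 3), and ARC, a synaptic plasticity protein, -0.11 ± 0.074 (-0.18 without animal 3). Neurotrophin genes had a median of 0.048, and 0.0023 without animal 3, with differences from -0.098 (RET, -0.027 without animal 3) to 0.078. In axon guidance 22 of 37 genes read higher on the left (median 0.033, and 0.035 without animal 3). Besides SEMA3E, SEMA3A, a repellent of cortical axons, read 6.97, 6.91, 7.29, 7.03 and 7.20 in left M1C, against 7.09, 6.70, 6.75, 6.48 and 6.51 in right M1C (0.37 ± 0.12, higher in 4 of 5 animals). NRP1, a receptor chain for SEMA3A, read 7.67, 7.73, 7.30, 7.72 and 7.18 on the left, against 7.79, 7.85, 7.80, 7.93 and 7.69 on the right. It was lower in 5 of 5 animals (-0.30 ± 0.083), by -0.51 and -0.52 in animals 3 and 5 and by -0.12 to -0.21 in the others.

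The medians of the lists on motor neuron disease and on asymmetry lay near 0 and both changed sign without animal 3. The 17 tested motor neuron disease genes had a median of -0.010 log2 (0.022 without animal 3), from -0.098 (SOD1, superoxide dismutase, -0.033 without animal 3) to 0.11 (REEP1, a shaper of axonal endoplasmic reticulum). Genes asymmetric in human fetal cortex or linked to handedness had a median of 0.0096 over 13 tested members (-0.019 without animal 3). LMO4, a transcription regulator asymmetric in human embryos, read 11.26, 11.23, 11.01, 11.26 and 10.93 in left M1C, against 11.24, 11.24, 11.22, 11.29 and 11.19 in right M1C. Its difference was -0.097 ± 0.067 with a 95% interval of -0.25 to 0.058, and animals 3 and 5 carried nearly all of it. NEUROD6, a neuronal transcription factor, read -0.14 ± 0.11 with an interval of -0.40 to 0.13, and PCDH11X, an X-linked protocadherin, 0.28 ± 0.13, from -0.074 to 0.74 by animal.

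FOXP2, linked to speech and a deep-layer marker, read 6.63, 6.70, 7.27, 6.88 and 7.16 in left M1C, against 6.87, 6.91, 6.76, 6.64 and 6.71 in right M1C. Animals 1 and 2 were lower and animals 3, 4 and 5 higher on the left, and the difference was 0.15 ± 0.12 log2 (0.062 without animal 3). CNTNAP2, an axonal adhesion protein, read 0.032 ± 0.065 with an interval of -0.12 to 0.18, and -0.0068 without animal 3. The 10 tested language-associated genes had a median of 0.040, and 0.0023 without animal 3. Left-right body patterning genes had a median of 0.0039 over 10 tested members (0.00036 without animal 3), with RFX3, a regulator of ciliary genes, at 0.12 ± 0.076 and FOXJ1, the master regulator of motile cilia, at -0.061 ± 0.071 (-0.10 without animal 3).

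Lists built around some leading genes, which hold more than their families, were described in the same way. Of the list of synucleins and interacting genes, 5 of 7 tested members read lower on the left (median -0.037 log2, and -0.029 without animal 3). SNCG was the lowest, and MAOA, a monoamine oxidase, read -0.15 ± 0.072 (-0.087 without animal 3). Of the list of lipid phosphate phosphatases and lysophosphatidate signalling genes, 5 of 13 read higher (median -0.057, and -0.013 without animal 3). PLPP5 was highest, with PLPP3 at 0.15 ± 0.070 and PLPP6 at -0.13 ± 0.067. Of 12 olfactomedin domain genes 10 read higher (median 0.052, and 0.016 without animal 3), with OLFML2A at 0.19 ± 0.074 after OLFML2B. Interferon response genes had a median of -0.030 over 7 members and of 0.0060 without animal 3, and IFIT2 differed by 0.45, -0.075, -0.47, 0.48 and 0.53 in animals 1 to 5 (mean 0.18, and 0.34 without animal 3).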

How the data were processed

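The authors deposited log2 intensities computed by RMA with the oligo package, per the submitters' processing notes (no version given). Whether the 30 arrays were normalized together is not given in the sources used here. Array medians lay between 6.57 and 6.64. Arrays have no read depth, and the number of animals limits the precision. Of 40489 probe sets, 16020 had 1 gene symbol in the platform annotation, 490 several and 23979 were not listed there and stay unnamed. The build is not given, so no coordinates or sequences are printed.

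Left minus right was taken within animals, whose numbers come from the titles. Deviations of the left and right M1C arrays of 1 animal from their group means correlated at 0.28 to 0.52 across probe sets, and at -0.14 in animal 3. The differences were fitted with limma 3.58.1 in R 4.3.3, with two-sided p-values, Benjamini-Hochberg adjustment over all 24292 tested probe sets and a threshold of 0.05. Arrays of other regions did not enter the M1C fit. The fit was tested on simulated data.

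Named genes are the 10 higher and 10 lower with the smallest p and the same direction in 5 of 5 animals, 5 and 5 likewise without animal 3, and 3 and 3 in the comparison with other regions. Up to 3 members per list with the smallest p in the M1C fit join them. So do the 5 probe sets with the smallest p, fixed genes and the genes of the label check, picked as stated there. Apart from those 5 probe sets, the brightest probe set of a gene with 1 non-systematic symbol was used. Members and gene lists were chosen with earlier results of these data known. Errors are moderated standard errors unless named SD.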

Additional observations from a re-analysis of the deposited data

Results flagged for a closer look

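Within groups of 5 values, 31 of 438 groups checked (7.08%) had a sample far from the others by Dixon's ratio, where chance gives about 1 in 20. The distant sample was animal 3 in 21 of the 31 and animal 5 in 5.

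For left minus right, animal 3 lay far from the other animals at -1.53 log2 for SYT2, -1.50 for SPP1, -1.14 for HAPLN4, -1.12 for VAMP1, -0.60 for UQCRQ, -0.56 for PINK1, -0.54 for VEGFA, -0.48 for KCNA2, -0.32 for GJB6 and -0.29 for RIGI. It lay far on the other side at 0.51 for GRIN3A, 0.36 for PTCRA, 0.16 for ARC and 0.022 for HMGA2. The list medians of animal 3 stood apart for large projection and fast-firing neurons (-0.68), heat shock, hypoxia and metal response (-0.24), respiratory chain (-0.21), excitatory neurons (0.23) and immediate early genes (0.16). Animal 5 stood apart for AGT (1.51) and for the median of the dystrophin complex (0.16).

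Among levels, animal 3 stood apart in right M1C for CLEC11A (6.91) and ARC (7.57). Animal 4 did so in right M1C for SYT7 (8.66), ZNF616 (6.27) and NDUFV2 (10.13). Animal 5 did so in right M1C for SYT2 (9.67) and BCAS1 (8.60) and in left M1C for RPL11 (9.23). Animal 1 did so in left M1C for DUSP6 (8.22) and in right M1C for CCDC39 (6.97).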

How the results depend on the processing

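Limma called 0 probe sets in M1C under each of 15 alternatives and 0 in the comparison with the other regions under each of 12, and so 0 members of any list. The lowest adjusted p in M1C was 0.245 with array weights and 0.251 without animal 4. Unadjusted p under 0.05 was reached in M1C by 1050 to 1698 probe sets when 1 animal was left out, by 844 without the replicate block (unpaired, where pairing gave 1313) and by 2120 without the filter. In the comparison with other regions it was reached by 1998 without the filter and 723 at the 60th percentile, against 1146. With 1 animal left out at a time, 4 named differences changed sign. CNTNAP2 lay between -0.0068 (without animal 3) and 0.075 log2, KLK6 between -0.23 and 0.011 (without animal 3), UGT8 between -0.33 and 0.072 (without animal 3) and S100A9 between -0.074 and 0.027 (without animal 4). Scaling moved the median of all probe sets by under 0.1 log2. The main limits are 5 animals, 1 array that goes against its label and probe sets without gene names.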

Other observations

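Some genes differed widely between the hemispheres of an animal without a common side. By the median absolute difference over 5 animals, a choice made after the values were seen, OGN led the genes with a symbol, at 1.07 log2 against 0.12 for the median probe set. OGN (osteoglycin), a matrix proteoglycan of the meninges, read 1.21, -1.07, 0.39, -0.22 and 1.17 left minus right in animals 1 to 5. LUM, a related proteoglycan, read 0.39, -0.64, 0.78, -0.082 and 0.71, and the complement component C7 0.76, -0.73, 0.83, -0.060 and 0.78. In these 3 genes animals 1, 3 and 5 were higher and animals 2 and 4 lower on the left. TTR, the thyroid hormone carrier of the choroid plexus, read -0.84, 1.13, -0.44, -0.060 and 0.65, and SFRP2, a secreted Wnt modulator, 1.08, -0.66, -1.16, -0.66 and 0.84. KLHL1, a kelch protein of neurons, was above 0 in all 5 pairs, from 0.0073 in animal 1 to 1.42 in animal 3.

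The unnamed probe set 13579433 had the largest mean difference among those with 1 direction in all pairs, at -1.03 ± 0.21 log2 (-0.49 to -2.06 by animal, limma adjusted p = 0.885). The unnamed probe sets 13576309 and 13576401, which hold identical values, read 0.61 ± 0.084 higher on the left (0.67 ± 0.080 without animal 3, adjusted p = 0.332). The probe set 13800240 read 0.57 ± 0.078 and 13686369 -0.41 ± 0.069, the last also lower on the left in VFC (-0.40) and STC (-0.88).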
